A study of Mus musculus with 12 samples.

Results

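The genes described here are 9 Toll-like receptors of the mouse, Tlr1, Tlr2, Tlr3, Tlr4, Tlr6, Tlr7, Tlr8, Tlr9 and Tlr13, and the lipopolysaccharide coreceptor Cd14. They were taken by symbol from the table of gene counts, 10 of its 55487 genes, and all 10 passed the filter on low counts that left 14618 genes for testing. Of the receptors, 4 act at the cell surface (Tlr1, Tlr2, Tlr4 and Tlr6) and 5 in endosomes (Tlr3, Tlr7, Tlr8, Tlr9 and Tlr13).

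RNA was sequenced in bulk from mouse monocytes labelled Ly6C+, the surface marker of classical monocytes, in 4 groups of 3 libraries. The bone marrow group (BM) carries the WT genotype label and no age. The fetal liver WT group carries the WT genotype label, with WT 1 from embryonic day E13.5 and WT 2 and WT 3 from E15.5, and the fetal liver Mixed group is also WT by genotype label and from E15.5. The fetal liver KO group carries the KO genotype label and is from E13.5. The allele behind KO, the meaning of Mixed, strain and treatment are not given by the sample labels. In the title of the series cMaf and Zeb2 appear, and its design text speaks of a Z165KO line and of tissue macrophages, neither of which is in the sample labels. Zeb2, a zinc-finger transcription factor of myeloid differentiation, was at 23.8, 20.1 and 22.5 counts per 1e+06 counts (CPM) in the KO libraries, against 141 to 165 CPM in WT.

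Toll-like receptors recognise conserved molecules of microbes and signal through the adaptors Myd88 or Ticam1 to NF-kB and interferon regulatory factors. Surface receptors bind mainly microbial lipids and lipoproteins, whereas endosomal receptors bind nucleic acids and depend on the chaperone Unc93b1 and on endosomal proteases. Monocytes use Tlr4 with Cd14 for lipopolysaccharide, and in the mouse type 1 conventional dendritic cells are known for high Tlr3 and for the profilin receptors Tlr11 and Tlr12.

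Library totals ran from 17384911 to 24473471 counts. The monocyte markers fixed as a list of 8 (among them Ly6c2, Ccr2 and Csf1r) summed to 37231 to 38164 CPM in BM, 14084 to 14178 CPM in Mixed, 10468 to 11948 CPM in fetal liver WT and 7202 to 8129 CPM in KO, and all 8 were detected in each group. Sex-linked transcripts were not balanced: the Y-linked Ddx3y had no count in the BM libraries or in KO 3 and lay between 19.1 and 53.8 CPM in the other 8. Whether libraries within a group are from different animals is not stated, so p-values measure only how far these samples spread, which may be technical spread. In bulk RNA, fewer cells of a type and less RNA per cell cannot be told apart.

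For 7 of the members a stretch before the annotated start was searched for motifs, and those of 4 members called in KO are printed here, with Tlr11 added from the list of other Toll-like receptors. Tlr6, whose counts are uncertain as given below, was also called in KO and is not printed. The stretches are the parts of RefSeq's promoter windows (GRCm38.p6) that lie before the start and outside annotated exons, read 5′ to 3′ on the gene's strand. Capitals mark matches, on either strand, to the core of the PU.1 motif (GAGGAA), the ZEB E-box (CACCTG), an IRF element (GAAA, any 2 bases, GAAA) or a C/EBP-like element (TTGCNNAA).
Tlr3 promoter, chr8:45410381-45410452, minus strand: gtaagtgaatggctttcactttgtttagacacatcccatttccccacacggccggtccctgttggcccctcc
Tlr9 promoter, chr9:106222348-106222597, plus strand: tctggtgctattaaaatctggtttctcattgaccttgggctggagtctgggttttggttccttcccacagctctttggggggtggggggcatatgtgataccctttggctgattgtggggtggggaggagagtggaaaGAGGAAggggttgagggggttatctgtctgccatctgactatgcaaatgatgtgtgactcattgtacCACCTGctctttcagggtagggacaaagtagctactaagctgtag
Tlr13 promoter, chrX:106143025-106143203, plus strand: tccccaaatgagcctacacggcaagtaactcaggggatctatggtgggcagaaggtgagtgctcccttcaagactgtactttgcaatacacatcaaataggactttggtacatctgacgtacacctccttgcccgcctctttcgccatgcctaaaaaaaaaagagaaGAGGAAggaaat
Tlr11 promoter, chr14:50357664-50357913, plus strand: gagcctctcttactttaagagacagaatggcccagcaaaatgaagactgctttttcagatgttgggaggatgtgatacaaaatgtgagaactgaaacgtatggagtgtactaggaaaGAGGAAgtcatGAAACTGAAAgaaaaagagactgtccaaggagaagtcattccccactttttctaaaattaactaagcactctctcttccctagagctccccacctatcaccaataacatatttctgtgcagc
Tlr8 promoter, chrX:167264330-167264579, minus strand: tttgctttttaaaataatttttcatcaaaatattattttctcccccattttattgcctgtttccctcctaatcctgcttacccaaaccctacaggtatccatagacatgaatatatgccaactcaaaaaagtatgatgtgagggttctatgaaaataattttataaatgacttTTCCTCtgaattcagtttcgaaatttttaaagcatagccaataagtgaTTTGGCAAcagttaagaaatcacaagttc
The PU.1 core lay in the stretches of Tlr9, Tlr13, Tlr11 and Tlr8 and in that of Tlr1. Of 32851 windows of 250 bases before RefSeq starts, 23.3% hold it. All shares of windows are over the full 250 bases, exons included. The stretches were trimmed of exons, to 72 bases for Tlr3, 91 for Tlr2 and 179 for Tlr13, so the lengths compared are unlike. The ZEB E-box was in the stretch of Tlr9 and in those of Tlr1 and Tlr2, and 17.2% of windows hold it. Neither Tlr1 nor Tlr2 was called in KO against WT, and their stretches are not printed. Tlr11 held an IRF element, which 2.98% of windows hold, and Tlr8 a C/EBP-like element, which 9.56% hold. A stretch of Tlr6 held 2 overlapping IRF elements and a C/EBP-like element, and another Tlr6 stretch, of 201 bases, held no match. The 72 bases of Tlr3 held none of these, nor an NF-kB site (GGGA, any base, TTTCC, in 0.356% of windows) or an ETS-IRF composite element (GGAA, any 2 bases, GAAA, in 2.3%). The Tlr3 stretch lies outside exons but within the span of the annotated gene, whose longer transcripts start further upstream. The stretches of Tlr5 and Tlr12, 250 bases each, were also searched, held no match to the motifs and are not printed. A match is a match of letters and not a measured binding site.

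KO against WT sets the genotype labels of fetal liver monocytes against each other. In this comparison 3 members were higher in KO (Tlr3, Tlr9 and Tlr13), 4 were lower (Cd14, Tlr6, Tlr7 and Tlr8) and 3 did not pass the test (Tlr1, Tlr2 and Tlr4), at an adjusted p under 0.05 in edgeR's quasi-likelihood test. Among all genes tested, 38.1% were called in this comparison, 18.2% higher and 19.9% lower. In 7 of the 10 members the KO and WT libraries did not overlap, against 47.4% of all genes tested. Tlr3 had the widest difference of the 10, 8.03-fold higher in KO, and Cd14 the widest of the lower ones, 3.03-fold.

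**Figure D1:**
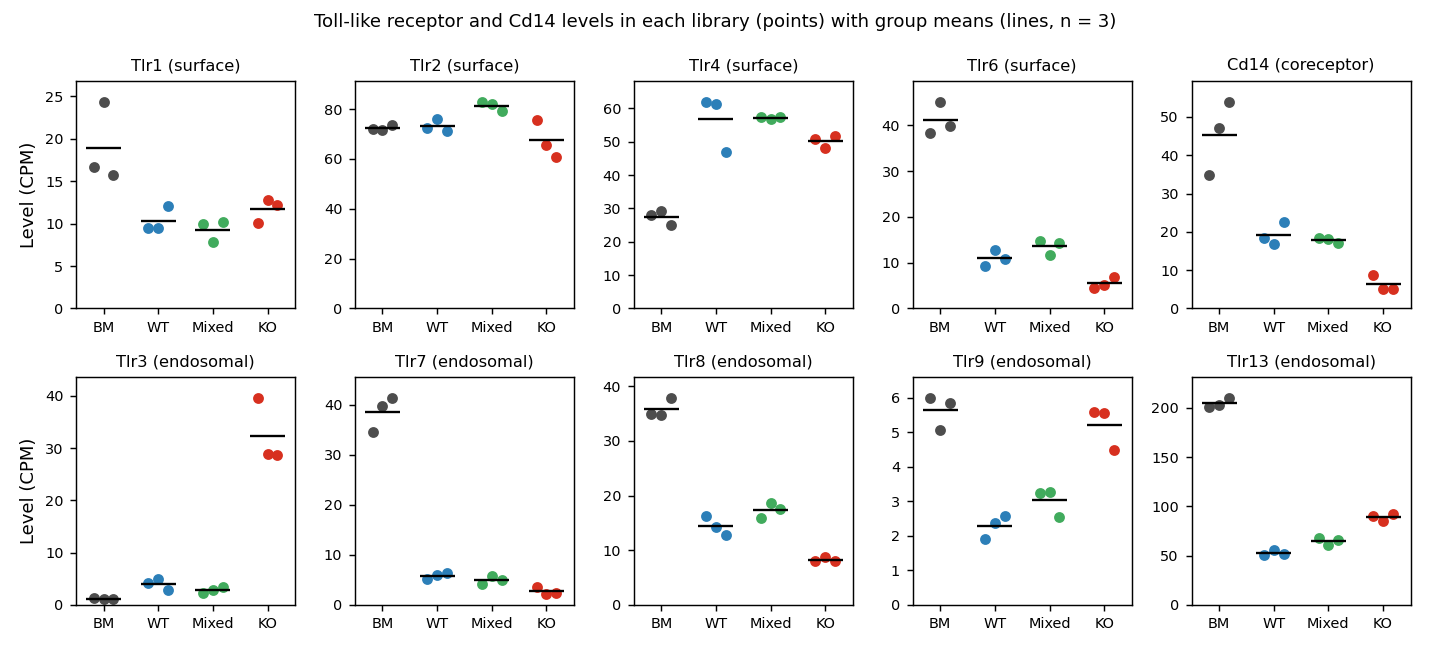
Level of each member in CPM (vertical axis, linear from 0, scaled per gene) in the 12 libraries, by group on the horizontal axis, with points for libraries and lines for the means of 3. Tlr3 lies between 28.6 and 39.6 CPM in KO and below 5 CPM in the other 9 libraries, and Tlr2 lies between 60.9 and 82.9 CPM throughout.

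Tlr2, which pairs with Tlr1 or Tlr6 to bind bacterial lipopeptides, varied least among the surface receptors. It was at 75.6, 65.8 and 60.9 CPM in KO 1 to KO 3, at 72.4, 76.2 and 71.0 CPM in WT, at 82.9, 82.0 and 79.2 CPM in Mixed, and at 72.2, 71.6 and 73.7 CPM in BM. KO libraries spread widest and overlapped WT, and its difference between KO and WT was -0.12 on the log2 scale (SE 0.0704, adjusted p = 0.2). Without KO 1, the highest KO library, Tlr2 was called lower in KO (log2 -0.21, adjusted p = 0.0211).

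Tlr4, the receptor for lipopolysaccharide, was at 50.9, 48.0 and 51.6 CPM in KO, at 62.0, 61.4 and 46.8 CPM in WT, at 57.4, 56.7 and 57.4 CPM in Mixed, and at 28.1, 29.2 and 25.1 CPM in BM. The BM libraries lay below all 9 fetal liver libraries, and WT 3 lay below the KO libraries whereas WT 1 and WT 2 lay above them. Between KO and WT the difference was -0.18 on the log2 scale (SE 0.0891, adjusted p = 0.132). Without WT 3 it was -0.30 and called (adjusted p = 0.0036).

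Tlr1 and Tlr6, the partners of Tlr2, are neighbours on chromosome 5 (GRCm38 64924679 to 64933563 and 64952031 to 64960097, both on the minus strand) and share sequence. Of the 50-base stretches of their transcripts, 454 occurred in both, 13.6% of those of Tlr1 and 12.3% of those of Tlr6, and these are the only members whose deposited counts were not whole numbers, in all 12 libraries. Reads divided between the pair are therefore uncertain.

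Tlr6 was at 4.50, 5.20 and 6.89 CPM in KO, at 9.21, 12.8 and 10.9 CPM in WT, at 14.8, 11.7 and 14.2 CPM in Mixed, and at 38.4, 45.2 and 39.8 CPM in BM. Every KO library lay below every other library, and every BM library above. It fell in KO by 0.99 on the log2 scale (SE 0.156, 1.98-fold, adjusted p = 3e-05). Tlr1 was at 10.05, 12.8 and 12.3 CPM in KO, at 9.54, 9.43 and 12.1 CPM in WT, at 9.93, 7.79 and 10.2 CPM in Mixed, and at 16.7, 24.4 and 15.7 CPM in BM. The fetal liver groups overlapped for Tlr1 and BM lay above them, and the difference between KO and WT was 0.17 (SE 0.168, adjusted p = 0.458). With the counts of both genes added together, the difference between KO and WT was -0.31 (SE 0.127, adjusted p = 0.0618), so the call for Tlr6 was lost in the sum.

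Cd14, the coreceptor that hands lipopolysaccharide to Tlr4, lies on chromosome 18 (36725067 to 36726798, minus strand). It was at 8.68, 5.20 and 5.07 CPM in KO, at 18.5, 16.7 and 22.5 CPM in WT, at 18.4, 18.3 and 17.03 CPM in Mixed, and at 34.7, 47.2 and 54.0 CPM in BM. The KO libraries were the lowest 3 of the 12 and the BM libraries the highest 3, with WT and Mixed overlapping. Cd14 fell in KO by 1.60 on the log2 scale (SE 0.214, adjusted p = 6.02e-05), while its signalling partner Tlr4 did not pass the test. The summed monocyte markers were lower in KO too, with 6 of 8 called lower and 2 higher, where 19.9% and 18.2% of all genes tested were. The part of these markers in the result was not tested.

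Tlr3, the receptor for double-stranded RNA, which signals through Ticam1, was at 39.6, 28.8 and 28.6 CPM in KO, at 4.24, 4.91 and 2.91 CPM in WT, at 2.33, 2.78 and 3.51 CPM in Mixed, and at 1.32, 1.07 and 1.19 CPM in BM. KO lay above every other library and BM below every other library. The rise in KO was 3.00 on the log2 scale (SE 0.182, adjusted p = 1.92e-11). Tlr3 lies on chromosome 8 (45395665 to 45411080, minus strand), where the antisense gene Gm45542 overlaps its exons between 45410063 and 45410760. The library kit does not mark strand, so reads of the pair cannot be told apart in that stretch.

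Tlr9, the receptor for unmethylated CpG DNA (chromosome 9, 106222598 to 106226883, plus strand), was at 5.59, 5.57 and 4.48 CPM in KO, at 1.90, 2.37 and 2.58 CPM in WT, at 3.25, 3.28 and 2.55 CPM in Mixed, and at 5.99, 5.08 and 5.85 CPM in BM. KO and BM overlapped, and both lay above WT and Mixed. Tlr9 rose in KO by 1.18 on the log2 scale (SE 0.201, 2.27-fold, adjusted p = 6.67e-05).

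Tlr13, a receptor for bacterial ribosomal RNA (chromosome X, 106143204 to 106160493, plus strand), was at 89.9, 84.8 and 92.0 CPM in KO, at 50.5, 55.9 and 52.1 CPM in WT, at 68.1, 60.6 and 65.6 CPM in Mixed, and at 201.1, 202.8 and 210.0 CPM in BM. No library of any group reached into another group, which held for none of the other members. It was 1.68-fold higher in KO than in WT (log2 0.75, SE 0.0624, adjusted p = 2.74e-09).

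Tlr7 and Tlr8, neighbours on chromosome X (167304929 to 167330558 and 167242696 to 167264329, both on the minus strand), bind single-stranded RNA or its fragments. Tlr7 was at 3.59, 2.26 and 2.37 CPM in KO, at 5.19, 5.90 and 6.44 CPM in WT, at 4.12, 5.83 and 5.05 CPM in Mixed, and at 34.6, 39.8 and 41.4 CPM in BM. Tlr8 was at 8.05, 8.78 and 8.03 CPM in KO, at 16.2, 14.3 and 12.8 CPM in WT, at 15.8, 18.7 and 17.6 CPM in Mixed, and at 35.0, 34.8 and 37.9 CPM in BM. For both genes KO was lowest and BM highest with no overlap, and WT overlapped Mixed.

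Tlr7 fell in KO by 1.09 on the log2 scale (SE 0.179, 2.13-fold, adjusted p = 4.29e-05) and Tlr8 by 0.80 (SE 0.112, 1.74-fold, adjusted p = 6e-06). Tlr7, Tlr8 and Tlr13 are X-linked, and Xist, the RNA of X inactivation, was at 26.8, 30.4 and 86.0 CPM in KO 1 to KO 3 and at 89.2, 94.7 and 24.9 CPM in WT 1 to WT 3. KO 3, the KO library with the highest Xist and no Ddx3y count, had Tlr7 between the other KO libraries, Tlr8 just below them and Tlr13 just above them. The part of this imbalance in the results was not tested.

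The KO libraries share their embryonic day with WT 1 only. With embryonic day as a covariate the 7 calls between KO and WT were kept, with log2 differences of 2.95 for Tlr3 (adjusted p = 2.86e-05), 1.47 for Tlr9 (0.00284), 0.83 for Tlr13 (1.14e-05), -0.71 for Tlr6 (0.0306), -0.90 for Tlr7 (0.0326), -0.95 for Tlr8 (0.000271) and -1.53 for Cd14 (0.000644). That fit leaves out the BM libraries and sets the 3 KO libraries against WT 1 alone, which is assumed to vary like the other groups. Over all genes, fewer were called between KO and WT in it than in the main fit.

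**Figure D2:**
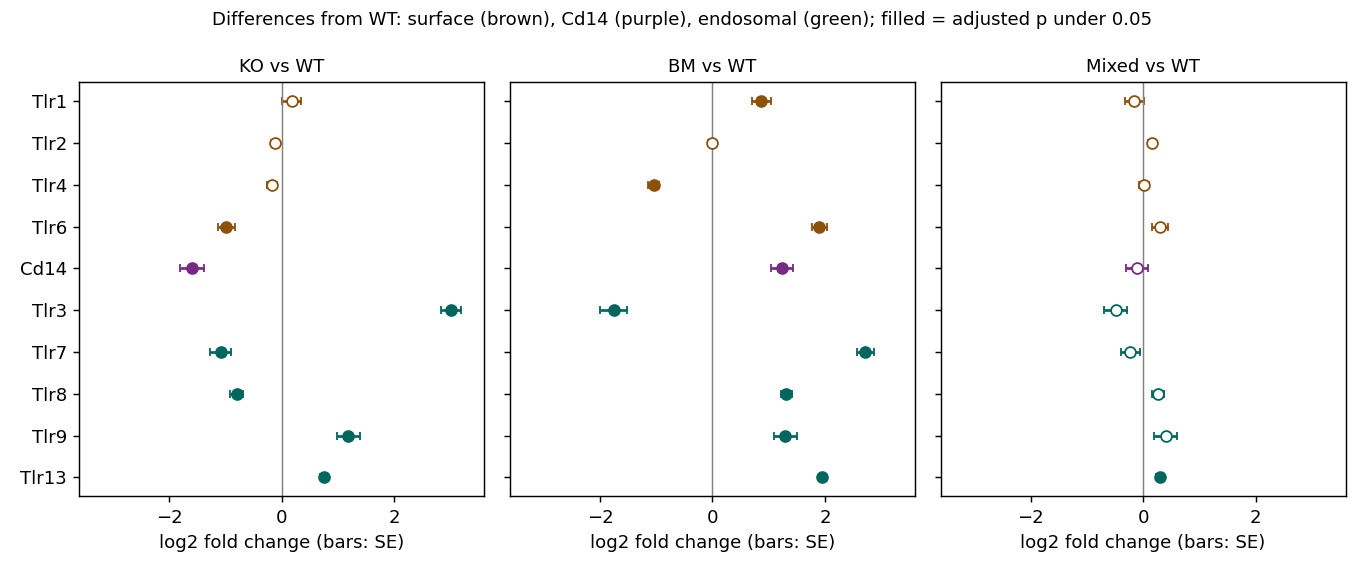
Log2 fold change of each member against WT (horizontal axis) in KO, BM and Mixed, with bars for the SE derived from the F statistic. Brown marks surface receptors, purple Cd14 and green endosomal receptors, and points are filled where the adjusted p is under 0.05. The KO panel runs from -1.60 (Cd14) to 3.00 (Tlr3), and Tlr13 is the 1 filled point of the Mixed panel.

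By class, 1 of 4 surface receptors was called in KO against WT, lower, with a median log2 difference of -0.15. Among all genes tested, 38.1% were called, 18.2% higher and 19.9% lower. All 5 endosomal receptors were called, 3 higher and 2 lower, with a median of 0.75 and a median absolute difference of 1.09. Over all genes tested the median was -0.03 and the median absolute difference 0.28. The endosomal class therefore moved in both directions and its median is not a shift of the class.

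Levels of different genes were set side by side in the deposited TPM (transcripts scaled to gene length and to the same sum, 1e+06, in each library). In WT, Tlr2 stood highest at 31.3 ± 1.73 TPM (SD, n = 3), followed by Tlr4 at 19.4 ± 2.61 TPM, Cd14 at 17.1 ± 2.40 TPM and Tlr13 at 17.05 ± 1.22 TPM. Tlr8 was at 7.94 TPM, Tlr1 at 5.12 TPM, Tlr6 at 4.91 TPM, Tlr7 at 2.39 TPM, Tlr3 at 2.09 TPM and Tlr9 at 0.857 TPM. In KO, Tlr2 (26.0 ± 2.98 TPM) and Tlr13 (25.4 ± 1.5 TPM) overlapped, and Tlr3 stood at 13.1 ± 2.70 TPM. In BM, Tlr13 led at 69.5 ± 2.15 TPM, above Cd14 at 45.3 ± 9.69 TPM and Tlr2 at 33.0 ± 0.618 TPM.

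Summed over each class, surface receptors were at 60.7 ± 3.77 TPM in WT, 68.4 ± 3.32 TPM in Mixed, 49.2 ± 2.59 TPM in KO and 75.4 ± 2.86 TPM in BM (SD, n = 3). Endosomal receptors were at 30.3 ± 1.47 TPM in WT, 35.9 ± 1.13 TPM in Mixed, 45.9 ± 4.63 TPM in KO and 111.2 ± 6.70 TPM in BM. The ratio of surface to endosomal sums was 1.98 to 2.03 in WT, 1.86 to 1.94 in Mixed, 1.04 to 1.14 in KO and 0.619 to 0.719 in BM. The 4 ranges did not overlap. Tlr13 made up 56.2% of the endosomal sum in WT, 60.2% in Mixed, 55.5% in KO and 62.6% in BM, and without it the ratio was 4.59 in WT, 4.82 in Mixed, 2.43 in KO and 1.82 in BM.

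**Figure D3:**
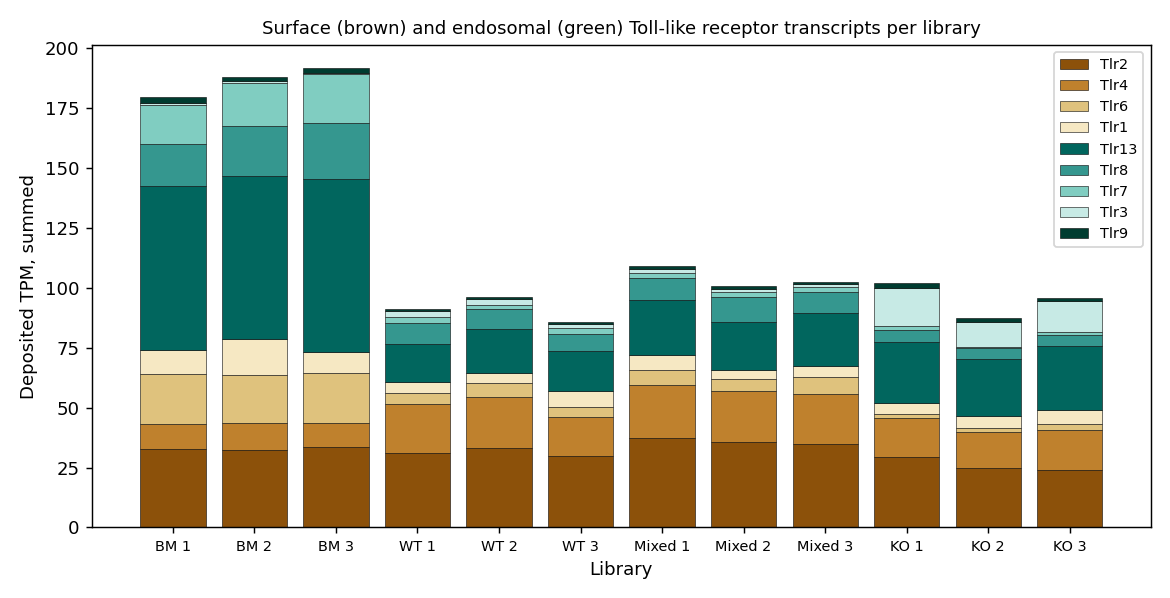
Deposited TPM of the 9 receptors stacked per library (horizontal axis), surface receptors in brown and endosomal receptors in green. The endosomal part is 105.4 to 118.5 TPM in BM and 28.8 to 50.0 TPM in the fetal liver libraries, and the light green Tlr3 band is wide in KO.

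Bone marrow against fetal liver WT compares monocytes of different sites. The BM libraries carry no age, so site and age cannot be told apart here. Sex-linked transcripts differed too, as Ddx3y had no count in BM and was detected in every WT library. Xist was at 114, 112 and 136 CPM in BM and at 89.2, 94.7 and 24.9 CPM in WT. The part of this imbalance in the differences between BM and WT, among them those of the X-linked Tlr7, Tlr8 and Tlr13, was not tested. Against WT, 7 members were higher in BM (Cd14, Tlr1, Tlr6, Tlr7, Tlr8, Tlr9 and Tlr13), 2 were lower (Tlr3 and Tlr4) and Tlr2 did not pass the test, where 64% of all genes tested were called, 32.1% higher and 31.9% lower. This comparison shares the WT libraries with that of KO. In 9 of the 10 members the BM and WT libraries did not overlap, against 68.1% of all genes tested.

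Tlr7 was 6.58-fold higher in BM (log2 2.72, SE 0.152, adjusted p = 9.21e-13), the widest rise among the members. Tlr13 was 3.87-fold higher (adjusted p = 8.26e-17) and Tlr6 3.74-fold higher (adjusted p = 1.17e-10). Tlr8 was 2.49-fold, Tlr9 2.45-fold, Cd14 2.36-fold and Tlr1 1.83-fold higher, with adjusted p between 2.95e-10 (Tlr8) and 0.000115 (Tlr1). The rise of the summed Tlr1 and Tlr6 counts was 1.49 on the log2 scale (adjusted p = 1.61e-09). Tlr3 was 3.37-fold lower (log2 -1.75, SE 0.241, adjusted p = 1.67e-06) and Tlr4 2.06-fold lower (log2 -1.05, SE 0.0927, adjusted p = 1.92e-09), so the lipopolysaccharide receptor and its coreceptor Cd14 went in opposite directions. Tlr2 differed by -0.01 on the log2 scale (SE 0.0704, adjusted p = 0.875).

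By class, 2 of 4 surface receptors were higher and 1 lower in BM, with a median log2 difference of 0.43. Of 5 endosomal receptors, 4 were higher and 1 lower, with a median of 1.31. Among all genes tested, 32.1% were higher and 31.9% lower. The median over all genes was 0.00 and the median absolute difference 0.56. Hepatocyte markers (5, among them Alb and Afp) summed to 0 to 0.385 CPM in BM and 4.47 to 76.5 CPM in the fetal liver libraries, and all 5 were called lower in BM than in WT. Of neutrophil markers, 5 of 8 were lower and 1 higher in BM, and of the 6 tissue macrophage markers tested, 4 were lower and 2 higher. The part of these cells in the differences was not tested. Summed monocyte markers were over 3 times as high in BM, as given above.

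BM and KO differ in genotype label and site, and BM carries no age, so these cannot be told apart in this pair. Sex-linked transcripts differed too, and their part was not tested. Directly against each other, BM and KO differed in 8 members, where 63.8% of all genes tested were called. Of the 8, 6 were higher in BM and 2 lower, where 31.8% and 32% of all genes were. In 8 members the libraries did not overlap, against 67.7% of all genes tested. Tlr3 was 27.1-fold lower in BM than in KO (log2 -4.76, SE 0.215, adjusted p = 3.05e-14) and Tlr7 14.0-fold higher (log2 3.81, SE 0.166, adjusted p = 1.21e-14). Tlr6 was 7.40-fold higher and Cd14 7.16-fold higher in BM, and the summed Tlr1 and Tlr6 counts were higher by 1.80 on the log2 scale. Tlr9 was at like levels, with a log2 difference of 0.11 (SE 0.188, adjusted p = 0.612), which does not show that the groups are equal.

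Mixed and WT are both labelled WT by genotype, and 1 member was called between them, higher in Mixed, where 8.07% of all genes tested were called and 4.21% were higher in Mixed. In 2 members the libraries of the 2 groups did not overlap, against 27% of all genes tested. Tlr13 was higher in Mixed by 0.29 on the log2 scale (SE 0.0629, 1.22-fold, adjusted p = 0.0066). That call was lost without Mixed 1 (log2 0.25, adjusted p = 0.0566) and with embryonic day as a covariate (log2 0.27, adjusted p = 0.0765), where Mixed is set against WT 2 and WT 3. The other 9 members had log2 differences between -0.49 (Tlr3) and 0.40 (Tlr9). Tlr3 was called lower in Mixed once WT 3 was left out (log2 -0.68, adjusted p = 0.036).

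KO is all from E13.5 and Mixed all from E15.5, so genotype label and embryonic day cannot be told apart in this pair. Against Mixed, 8 members were called in KO, 3 higher and 5 lower, where 36.7% of all genes tested were called, 18.2% higher and 18.5% lower. In 9 members the libraries did not overlap, against 48.3% of all genes tested. Tlr3 was 11.3-fold higher (log2 3.49, SE 0.189, adjusted p = 2.75e-12), Tlr9 1.72-fold and Tlr13 1.37-fold. Cd14 was 2.83-fold, Tlr6 2.44-fold, Tlr8 2.10-fold, Tlr7 1.82-fold and Tlr2 1.21-fold lower. This comparison shares the KO libraries with that against WT. Tlr4 was called lower in KO without WT 3 (log2 -0.19, adjusted p = 0.0354). Between BM and Mixed all 10 members were called, 7 higher and 3 lower in BM. Of all genes tested, 58.4% were called there, 29.5% higher and 28.9% lower. Site and age cannot be told apart between BM and Mixed, and the part of sex-linked differences was not tested. The call for Tlr2 in that pair (log2 -0.17, adjusted p = 0.0459) was lost without any 1 of BM 1, BM 2, BM 3, Mixed 1, Mixed 2 or Mixed 3.

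In order of level, BM led and KO stood last for Cd14, Tlr6, Tlr7 and Tlr8, with WT and Mixed between them and not called apart. For Tlr3 the order was KO, WT, Mixed and BM, and only WT and Mixed were not called apart. For Tlr13 it was BM, KO, Mixed and WT, and each neighbour was called apart. Tlr9 had BM beside KO and Mixed beside WT, and only KO and Mixed were called apart among these neighbours. For Tlr4 only the step from KO down to BM was called, for Tlr1 only the step from BM down to KO, and for Tlr2 none between neighbours.

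The Toll-like receptors Tlr5, Tlr11 and Tlr12, which are no members, were kept as a separate list. Tlr11, an endosomal receptor for protozoan profilin, was at 17.8, 16.7 and 18.8 CPM in KO and at 1.17, 0.804 and 1.27 CPM in WT, and it was 16.4-fold higher in KO (log2 4.04, SE 0.241, adjusted p = 1.19e-11). Tlr12, its partner, was at 8.96, 8.36 and 8.58 CPM in KO and at 0.223, 0.625 and 0.141 CPM in WT, and was 25.1-fold higher (log2 4.65, SE 0.473, adjusted p = 3.19e-07). WT had only 4, 14 and 3 counts of Tlr12, and its difference was 5.54 on the log2 scale without WT 2 and 5.25 with embryonic day as a covariate. The KO libraries lay above the other 9 for both. Tlr5, the surface receptor for flagellin, was at 2.32, 1.94 and 2.49 CPM in KO and at 1.06, 1.16 and 1.79 CPM in WT, a difference of 0.75 that did not pass the test (adjusted p = 0.0564). It was called without Mixed 1, Mixed 2 or WT 3 and by DESeq2 (adjusted p from 0.0224 to 0.0487). In BM, Tlr5 was 4.73-fold higher than in WT and Tlr11 2.67-fold, and the call for Tlr12 (3.04-fold, adjusted p = 0.0159) was lost without BM 1, BM 2, WT 1 or WT 3 (adjusted p from 0.0607 to 0.0712) and was larger without WT 2 (log2 2.496 in place of 1.60).

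Markers of type 1 conventional dendritic cells were high in the same KO libraries. Their 8 genes summed to 857 to 1007 CPM in KO, 338 to 361 CPM in BM, 196 to 214 CPM in Mixed and 161 to 185 CPM in WT. Most of the KO sum came from Naaa, Wdfy4 and Ifi205 together, and most of the BM sum from Naaa. In KO against WT, 7 of the 8 were called higher, where 18.2% of all genes tested were. Clec9a, a receptor for dead cells on these dendritic cells, was at 20.6 ± 2.48 CPM in KO and at 0.0499 ± 0.0473 CPM in WT, Cadm1 at 21.8 ± 0.400 and 2.38 ± 0.290 CPM, and the transcription factor Batf3 at 57.0 ± 5.45 and 4.24 ± 0.447 CPM (SD, n = 3). Xcr1 was at 3.45 ± 0.130 CPM in KO and 1.09 ± 0.374 CPM in WT, and Itgae, the 1 marker not called, at 0.593 and 0.401 CPM. Their part in the levels of Tlr3, Tlr11 and Tlr12 was not tested.

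**Figure D4:**
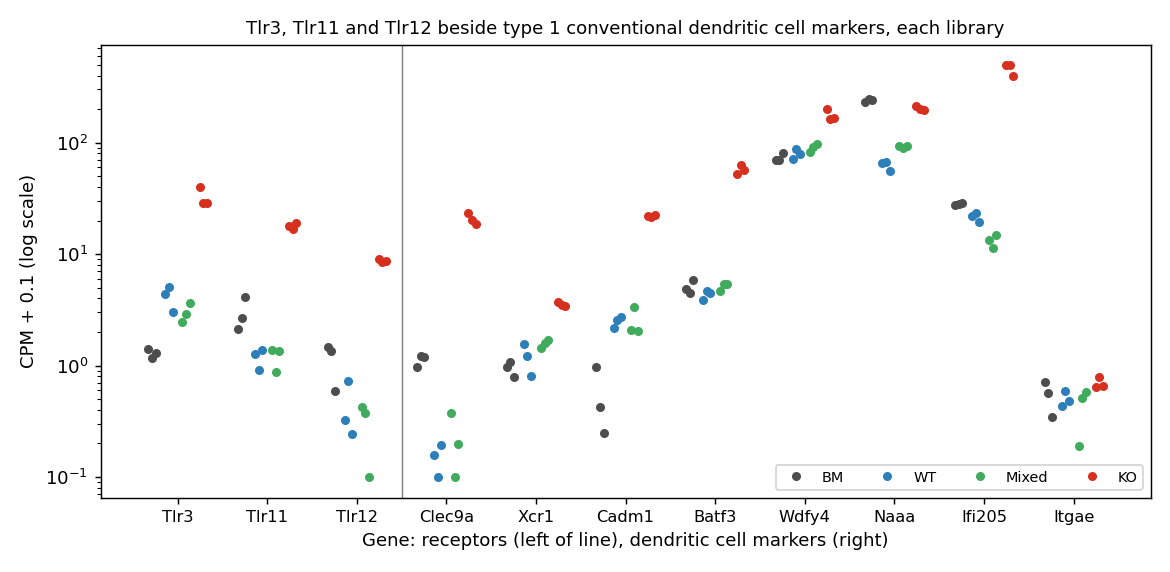
CPM plus 0.1 on a log axis for Tlr3, Tlr11 and Tlr12 (left of the line) and 8 markers of type 1 conventional dendritic cells (right), with points for libraries coloured by group. Tlr3, Tlr11, Tlr12, Clec9a, Xcr1, Cadm1, Batf3, Wdfy4 and Ifi205 are highest in the 3 KO libraries, whereas Naaa reaches 241 CPM on average in BM and Itgae is under 1 CPM throughout.

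Markers of plasmacytoid dendritic cells, which are known for Tlr7 and Tlr9, summed to 72.7 to 78.5 CPM in KO, 108 to 112 CPM in BM, 43.6 to 46.9 CPM in Mixed and 41.7 to 44.4 CPM in WT, with Klk1 at 0 in all groups. Of the 5 tested, 2 were called higher in KO than in WT and 3 were not called, with a median log2 difference of 0.07. Over all genes tested, 38.1% were called between KO and WT, 18.2% higher and 19.9% lower. Most of the KO sum of the plasmacytoid markers came from Tcf4 and Lair1. Of the 5 B cell markers tested, 1 was called higher in KO than in WT, 1 lower and 3 were not called. In BM against WT, 4 of the 5 were higher and 1 lower, where 32.1% and 31.9% of all genes tested were. Single B cell genes were chosen after their values were seen. Cd79b was at 61.7 CPM in KO, 83.9 CPM in WT and 38.2 CPM in BM. Ms4a1 was at 75.1 CPM in KO and 0.106 CPM in WT. Neutrophil markers summed to 1620 to 2690 CPM in KO and 717 to 1825 CPM in WT. Of these 8, 4 were called higher in KO, where 18.2% of all genes tested were. Their part in the results for Tlr9 and the other members was not tested. None of the macrophage or hepatocyte markers tested was called between KO and WT.

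In the lists of pathway genes that follow, the shares called over all genes tested are those given above, 38.1% in KO against WT (18.2% higher), 64% in BM against WT (32.1% higher) and 8.07% in Mixed against WT (4.21% higher). Among 7 accessory proteins of the receptors, 4 rose and 1 fell in KO against WT, with a median log2 difference of 0.29. Cd36, a scavenger receptor that works with Tlr2 and Tlr6, was at 93.1 CPM in KO and 2.83 CPM in WT, 32.5-fold higher (log2 5.02, adjusted p = 3.32e-13), and 5.67 on the log2 scale with embryonic day as a covariate. Cd180 and its partner Ly86, a receptor pair related to Tlr4 and its partner Ly96, were 1.83-fold and 1.24-fold higher. In BM against WT, 5 rose and 2 fell, with Clec4e 3.19-fold and Cd36 3.49-fold higher and the lipopolysaccharide-binding protein Lbp 1.75-fold lower.

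Among 13 genes for trafficking and processing of the endosomal receptors, 6 rose and 2 fell in KO against WT (median 0.15), where 38.1% of all genes were called. Rab7b, a small GTPase of late endosomes, was at 301.1 CPM in KO and 24.0 CPM in WT, 12.6-fold higher (adjusted p = 1.02e-19), and the protease Ctsl was 2.01-fold higher. Pld3, an endosomal nuclease that degrades receptor ligands, was 3.51-fold lower, from 22.5 to 6.39 CPM. In BM against WT, where 64% of all genes were called, 10 rose and 2 fell, with the proteases Ctss 3.24-fold and Ctsb 2.61-fold higher and Ctsl 2.65-fold lower. Mixed against WT, where 8.07% of all genes were called, had 5 higher and none lower, with Pld4 1.25-fold and Unc93b1 1.24-fold higher (adjusted p = 0.00286 and 0.00249). The call for Ctsb, another of the 5 (adjusted p = 0.039), was lost in 8 of 19 alternatives, which were embryonic day as a covariate, a fit of these groups alone, and leaving out BM 3, KO 2, Mixed 1, Mixed 3, WT 1 or WT 2 (adjusted p up to 0.174).

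Among adaptors and kinases, 6 of 20 tested rose and 2 fell in KO against WT (median 0.09). Of all genes tested, 38.1% were called, 18.2% higher and 19.9% lower. Pik3ap1, an adaptor to phosphoinositide kinase, was 3.10-fold higher, and Ikbke, a kinase of interferon induction, and Ticam2, the bridging adaptor of Tlr4, were 1.66-fold and 1.61-fold lower. In BM against WT, 12 rose and 2 fell, where 64% of all genes were called, 32.1% higher and 31.9% lower. Ikbkb was 2.72-fold, Map3k8 2.09-fold and Ticam1, the adaptor of Tlr3, 1.59-fold higher. Among inhibitors of the pathway, 4 of 10 tested rose and 1 fell in KO, where 18.2% and 19.9% of all genes did, with Sigirr 2.47-fold higher and Irak3 2.37-fold lower. In BM against WT 9 of these 10 rose, where 32.1% of all genes did, with Dusp1 9.48-fold, Tnfaip3 2.45-fold and Irak3 2.29-fold higher.

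Of 11 transcription factors of the pathway, 5 rose and none fell in KO against WT, where 18.2% of all genes rose, with a median of 0.20. Irf7 was 3.25-fold higher, from 101.1 to 328.9 CPM, and Irf8, a factor of monocyte and dendritic cell development, 2.71-fold higher, from 289.3 to 785.4 CPM. All 11 rose in BM against WT, where 32.1% of all genes did, with Jun 7.69-fold, Fos 5.47-fold and Nfkb2 3.59-fold higher. Of 17 induced targets, 9 passed the filter, and Il6, Il10, Il12a, Il12b, Cxcl1, Ifnb1, Nos2 and Ptgs2 did not. In KO, 3 of the 9 rose, with Cd40 at 1.12 CPM against 0.158 CPM in WT and Cxcl10 1.63-fold higher (adjusted p = 0.015). The call for Cxcl10 was lost without KO 1, without WT 2 and with embryonic day as a covariate (adjusted p up to 0.156). In BM, 5 of the 9 rose, with Cd40 at 20.8 CPM, 124-fold higher than in WT, and Cxcl10 2.33-fold higher. The fold of Cd40 is imprecise, since WT had 1, 2 and 7 counts, and without WT 3 its log2 difference was 8.01 in BM and 3.82 in KO, in place of 6.96 and 2.76. With embryonic day as a covariate it was 4.21 in KO. Between Mixed and WT, where 8.07% of all genes were called, the adaptors had 2 higher (Ikbkb and Myd88) and 1 lower (Tab2), the transcription factors 2 higher (Irf5 and Irf8), the inhibitors 1 higher (Nfkbia) and the targets 1 lower (Ccl4, log2 -1.07). Of these 7 calls, those of Ikbkb and Irf5 held in all 19 alternatives, and the other 5 were lost with embryonic day as a covariate. They were also lost without Mixed 1 or WT 1 (Myd88), without Mixed 2, Mixed 3, WT 1 or WT 2 (Irf8), without any 1 Mixed library or WT 3 (Ccl4), and without any 1 Mixed library, WT 1 or WT 2 (Nfkbia and Tab2, Tab2 also without BM 2 or BM 3, without the low-count filter, with the replicate block and in a fit of these groups alone).

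**Figure D5:**
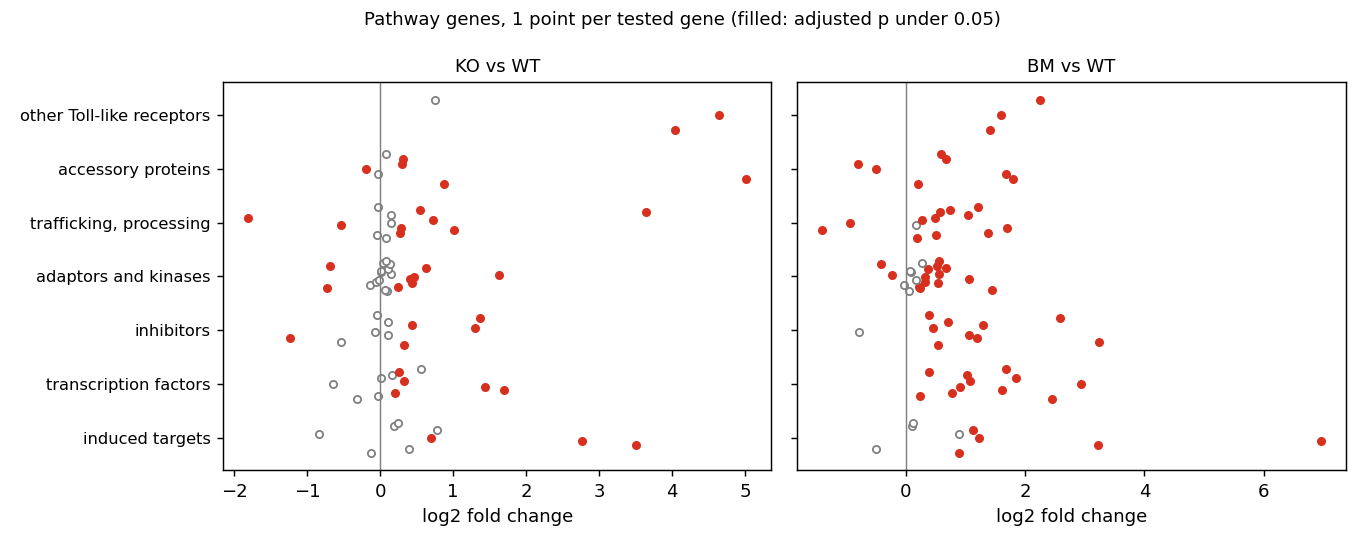
Log2 fold change against WT (horizontal axis) of each tested pathway gene by list, for KO and BM, filled red where the adjusted p is under 0.05. In KO the lists spread to both sides of 0 with medians from 0.09 to 0.39 apart from the 3 other Toll-like receptors (4.04), and in BM the transcription factors are all filled and right of 0.

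For each member, the gene outside the list with the most similar profile over the 4 groups was taken from 8160 candidates. The 4 group means of log2 CPM were first centred on their own average for each gene. Likeness was measured by the root-mean-square (RMS) difference of the centred means, so it compares the shape of profiles and not the level. Tlr2 lay nearest to Dot1l (RMS 0.0042), Tlr4 to Lrr1 (0.0288), Tlr1 to Cdkn1b (0.0351), Tlr6 to Gab3 (0.082) and Cd14 to Dse (0.0674). Among endosomal receptors, Tlr8 lay nearest to Klhl22 (0.0325), Tlr9 to Anxa2 (0.0347), Tlr13 to Btg2 (0.046), Tlr7 to Hal (0.151) and Tlr3 to Septin1 (0.225). Septin1 was at 33.7 CPM in KO, 3.08 CPM in WT, 2.14 CPM in Mixed and 1.29 CPM in BM.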

How the data were processed

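The deposited values were estimated counts per gene and TPM, both made by the authors in tables of the whole series, and the tools named in the submitters' processing notes are Salmon, STAR, featureCounts, Subread and DRAGEN, with build mm10 and no roles stated. The deposited CPM table was not used. Of 55774 entries, 287 repeated an Ensembl gene and were removed. Counts were rounded, filtered with filterByExpr (minimum count 10, minimum total 15), scaled by TMM and fitted by edgeR's quasi-likelihood method (robust) with a mean per group over all 12 libraries. P-values were two-sided and Benjamini-Hochberg adjusted over the 14618 genes tested, with a threshold of 0.05. The SE of a log2 difference was derived, as its absolute value divided by the square root of the F statistic of the quasi-likelihood test. Levels are CPM on TMM-scaled library sizes. Class sums use the authors' deposited TPM. Tests were run in edgeR 4.0.16 and DESeq2 1.42.0, with limma 3.58.1, under R 4.3.3. The fit was tested on simulated data.

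Libraries were grouped by sample title. Alternatives were DESeq2, other scaling, no filter, embryonic day, a replicate block and leaving out each library. Adding Tlr1 to Tlr6 was chosen after seeing the data. The members and lists were chosen with earlier results of these data known. From each pathway list and comparison, the rule named up to 3 called genes of largest change whose average reached 1 log2 CPM, and where none was called the 2 of highest average. Candidates for profile likeness averaged 3 log2 CPM or more. Positions are 1-based, from GENCODE on GRCm38, and promoter sequences from RefSeq (GRCm38.p6).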

Additional observations from a re-analysis of the deposited data

How the results depend on the processing

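Totals were 17384911 to 24473471 counts per library, and low members rest on few counts, such as Tlr3 in BM with 23 to 24 counts per library. With embryonic day as a covariate, 399 genes were called between Mixed and WT in place of 1180, and 0 members in place of 1. DESeq2 called 1524 genes there. Leaving out 1 library at a time gave 4803 to 5614 genes called between KO and WT (7 to 8 members), 414 to 1457 between Mixed and WT (0 to 2), 8756 to 9450 between BM and WT (9 to 9), 4553 to 5548 between KO and Mixed (8 to 9), 7874 to 8722 between BM and Mixed (9 to 10) and 8800 to 9531 between BM and KO (8 to 9). With CPM per exon length in place of TPM, the surface to endosomal ratio was 1.16 in KO (1.07 with TPM) and 2.11 in WT (2.00 with TPM). With the counts of Tlr1 and Tlr6 summed, the difference between KO and Mixed was -0.41 (adjusted p = 0.0155), where Tlr1 alone had 0.33 and did not pass the test.

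Libraries with the same replicate number in different groups did not deviate together (correlations of -0.0353 to 0.0693 over 18 pairs), so the numbers were not taken as pairs. With a replicate block, 5525 genes were called between KO and WT, 1168 between Mixed and WT, 9262 between BM and WT, 5288 between KO and Mixed, 8479 between BM and Mixed and 9252 between BM and KO, and the counts of members called were 7, 1, 9, 8, 10 and 8, as without it.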
